A study of Homo sapiens with 8 samples.

Results

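ID1, ID2, ID3 and ID4 and 6 SMAD genes (SMAD1, SMAD4, SMAD5, SMAD6, SMAD7 and SMAD9) were followed on 8 Affymetrix arrays of AGS, an established line of human gastric adenocarcinoma cells. They are 10 of 18132 genes measured, and they were chosen by symbol in the platform annotation, with every probe set assigned to that gene alone. This gave 33 of 44988 single-gene probe sets, and no low-value filter was set, so all 33 entered the fit. The 4 podofilox arrays carried RNA of AGS cells kept for 72 hours with 3.4 nM podofilox, a plant toxin also called podophyllotoxin that keeps tubulin from forming microtubules. The 4 control arrays carried RNA of AGS cells without the drug. Whether those cells received its solvent, and whether the replicates were separate cultures, is not given in the sources used here, so errors and p-values cover only how these arrays vary, which may be technical variation.

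The genes were chosen from families around ID3, whose difference between these same arrays was already known. The differences of all 10 between podofilox and control are therefore given as a description, with their errors and with no test, and nothing is supported by how many passed the fit. Values are the deposited log2 values, a difference is the podofilox mean minus the control mean, and SE is limma's moderated standard error. A probe set is counted as called where its limma adjusted p over all 44988 probe sets was under 0.05. In bulk RNA, fewer cells of a type and less mRNA per cell cannot be told apart. Levels of different probe sets are not compared, since each has its own brightness.

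SMAD proteins carry the signal of bone morphogenetic proteins (BMPs) and of TGF-beta from the cell surface to the nucleus. BMP receptors phosphorylate the receptor-regulated SMAD1, SMAD5 and SMAD9, which join the common partner SMAD4 and bind DNA, whereas SMAD2 and SMAD3 serve the TGF-beta and activin receptors. The ID genes are classic early targets of the BMP branch. Their small proteins have a helix-loop-helix but no DNA-binding region, so they trap E proteins and hold back the differentiation genes those factors drive. SMAD6 and SMAD7 are induced by the same signals and inhibit them in turn.

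The mRNAs of ID1, ID2 and ID3 and of the inhibitory SMAD7 were lower with podofilox on each of their probe sets, and that of SMAD6 on 2 of its 3. ID3 differed most, at 56.6% to 58.4% of its control level on 3 probe sets. ID2 stood at 71.4% and 75.3%, ID1 at 75.4% to 77.8%, SMAD7 at 65.3% to 71.6%, and the lower SMAD6 probe sets at 78.0% and 85.0%. SMAD5 was higher on each of 5 probe sets, at 112% to 126% of control. SMAD4 differed by at most 0.09 in size on its 7 probe sets, and ID4 and SMAD9 were dim. Of the 33 probe sets, 13 were called lower and 2 higher, and 18 were not called. Over all single-gene probe sets, 18.0% were called, 10.2% lower and 7.83% higher. The 4 podofilox values lay all below the 4 control values on 14 member probe sets and all above them on 2. The same held for 13.8% and 10.5% of all probe sets. These counts follow from the choice of the genes and are not read further. The median difference was -0.07 over the 33 probe sets and 0.007 over all.

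**Figure D1:**
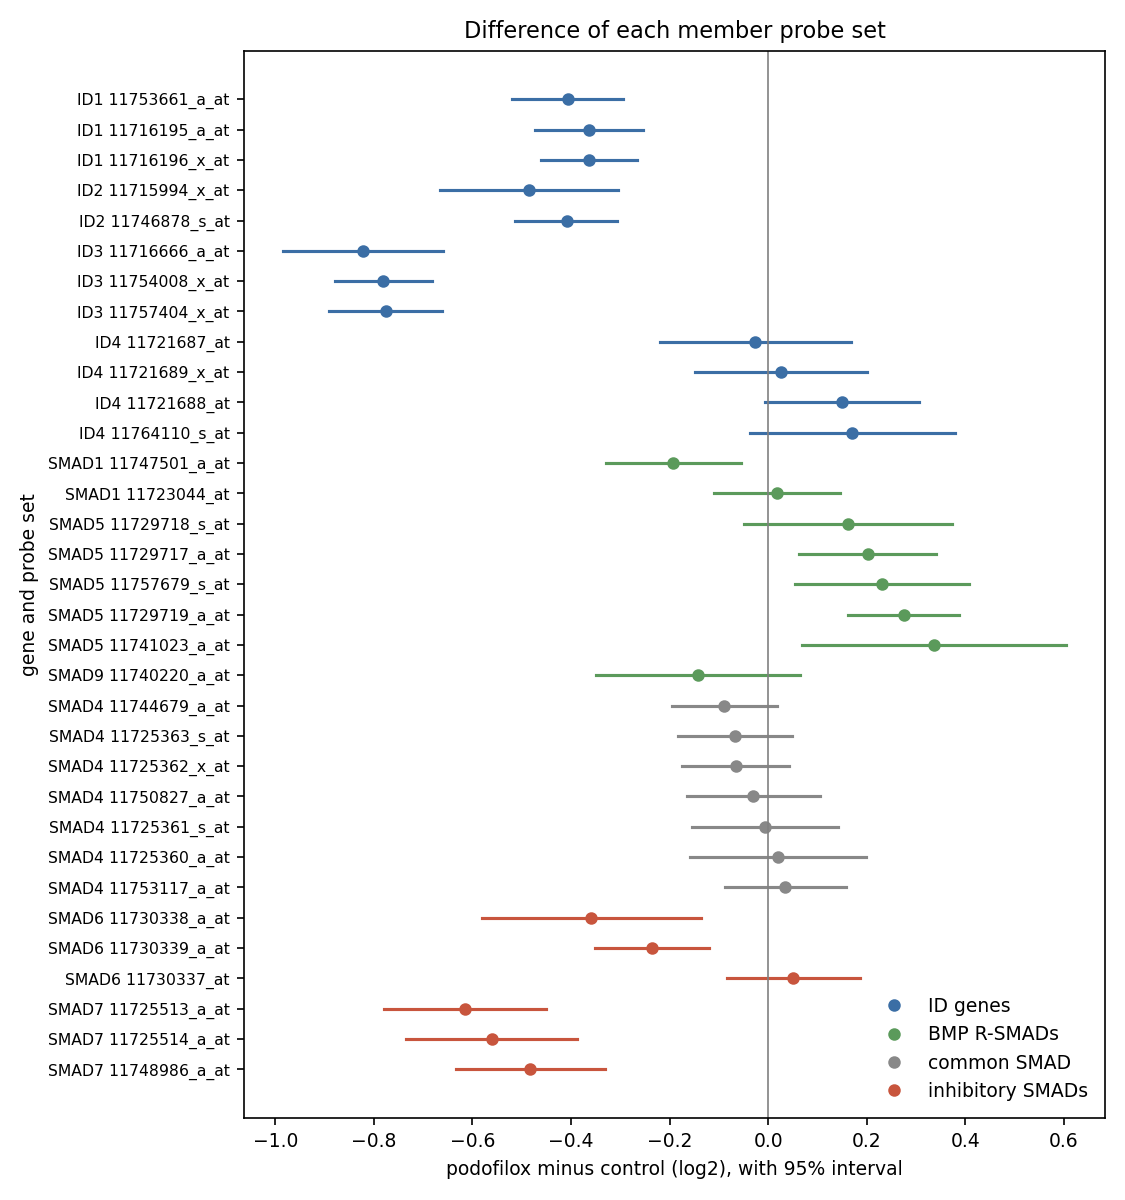
Podofilox minus control (log2, x axis) for the 33 probe sets of the 10 genes (y axis), with limma's 95% interval as a bar and the role of the gene as colour. The intervals of the 8 probe sets of ID1, ID2 and ID3 and of the 3 of SMAD7 lie below 0, and those of the 7 SMAD4 probe sets span 0.

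The stretches just upstream of the 5 genes that were lower on most of their probe sets, ID1, ID2, ID3, SMAD6 and SMAD7, are shown. Each is the 250 bases before an annotated start in the RefSeq promoter table of GRCh38.p14, 5′ to 3′ on the strand of the gene, and capitals mark GTCT, the 4-base core that SMADs bind, or its reverse complement AGAC. They lie at chr20:31605039-31605288 on the plus strand (ID1), chr2:8681806-8682055 on the plus strand (ID2), chr1:23559502-23559751 on the minus strand (ID3), chr15:66701986-66702235 on the plus strand (SMAD6) and chr18:48950966-48951215 on the minus strand (SMAD7, the most upstream of its 3 annotated starts).
ID1: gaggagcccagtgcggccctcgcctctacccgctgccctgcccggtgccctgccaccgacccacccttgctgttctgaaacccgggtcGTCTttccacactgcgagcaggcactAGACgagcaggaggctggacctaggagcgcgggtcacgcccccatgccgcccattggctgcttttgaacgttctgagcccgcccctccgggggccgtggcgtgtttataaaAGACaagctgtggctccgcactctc
ID2: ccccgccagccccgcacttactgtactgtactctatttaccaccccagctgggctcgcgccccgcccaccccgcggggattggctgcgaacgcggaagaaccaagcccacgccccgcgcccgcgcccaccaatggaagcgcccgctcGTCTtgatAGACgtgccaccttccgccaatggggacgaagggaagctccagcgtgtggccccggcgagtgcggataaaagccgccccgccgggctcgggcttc
ID3: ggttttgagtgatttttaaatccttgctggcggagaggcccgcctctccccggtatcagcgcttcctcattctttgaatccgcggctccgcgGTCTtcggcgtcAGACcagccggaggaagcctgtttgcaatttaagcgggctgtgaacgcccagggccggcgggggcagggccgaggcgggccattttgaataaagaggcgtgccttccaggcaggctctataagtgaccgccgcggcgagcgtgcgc
SMAD6: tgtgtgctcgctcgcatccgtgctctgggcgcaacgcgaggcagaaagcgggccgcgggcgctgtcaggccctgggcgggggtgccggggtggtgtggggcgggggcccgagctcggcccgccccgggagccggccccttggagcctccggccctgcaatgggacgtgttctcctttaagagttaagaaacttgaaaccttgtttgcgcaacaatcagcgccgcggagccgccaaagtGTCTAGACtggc
SMAD7: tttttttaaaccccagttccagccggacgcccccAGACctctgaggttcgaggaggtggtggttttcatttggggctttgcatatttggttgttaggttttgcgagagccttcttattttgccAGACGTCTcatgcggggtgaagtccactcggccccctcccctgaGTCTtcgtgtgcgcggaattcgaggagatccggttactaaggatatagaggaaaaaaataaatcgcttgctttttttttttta

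All 10 genes were found in that table, with 16 annotated starts in all. ID1 has 3 matches to GTCT on either strand, and ID2, ID3 and SMAD6 have 2 each. SMAD7 has 4 in the window shown and 5 and 1 in those of its other starts. The core is short, and 77.5% of all 35116 promoter windows of this length hold it, as do 13 of the 16 windows of the 10 genes. The pair of matches begins 103 and 95 bases before the start of ID2 and 158 and 146 bases before that of ID3. The GC-rich GGCGCC, known from BMP response elements, was in 3 of the 16 windows, those of SMAD4 and of 2 SMAD1 starts, against 16.4% of all windows. GGCGCC followed after 5 bases by GTCT was in 0 of the 16 and in 0.0769% of all. Bases outside these windows were not searched, so elements farther from a start would not be seen. The E-box CANNTG, the site of E proteins, was in 9 of the 16 and in 61.8% of all. GC content of the windows shown was 66.0% for ID1, 69.2% for ID2, 62.0% for ID3, 68.0% for SMAD6 and 48.0% for SMAD7, against a median of 58.0% over all windows. These matches describe the letters in the windows and do not show binding. Whether SMADs had a part in the lower values was not tested.

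ID3, which in epithelial and other cells is induced quickly by BMPs, was read by 3 probe sets. On 11754008_x_at the control arrays 1 to 4 gave 11.13, 11.15, 11.17 and 11.14, and the podofilox arrays 1 to 4 gave 10.36, 10.44, 10.31 and 10.37. The 4 podofilox arrays lay together, below every control array. The group means were 11.15 ± 0.02 and 10.37 ± 0.05 (SD, 4 arrays each), and the difference was -0.78 (SE 0.05, 95% interval -0.88 to -0.68). On the brightest ID3 probe set, 11757404_x_at, the control arrays gave 11.46, 11.60, 11.50 and 11.50 and the podofilox arrays 10.79, 10.80, 10.65 and 10.72, a difference of -0.78 (SE 0.05). On 11716666_a_at the control arrays were more spread, at 11.01, 11.14, 10.80 and 10.89, against 10.06, 10.22, 10.13 and 10.15 with podofilox, a difference of -0.82 (SE 0.07). The groups did not overlap on any of the 3, and their differences ran from -0.82 to -0.78. The pair of _x_at probe sets can also bind other transcripts, and the third, of the _a_at kind, is meant for transcripts of ID3 alone.

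ID1, also a target of the BMP branch, was lower by a smaller amount than ID3. On its brightest probe set, 11753661_a_at, the control arrays gave 12.96, 13.09, 12.94 and 12.97 and the podofilox arrays 12.60, 12.64, 12.53 and 12.56. Every podofilox array lay below every control array, and the difference was -0.41 (SE 0.05, 95% interval -0.52 to -0.30). The other ID1 probe sets, 11716195_a_at and 11716196_x_at, differed by -0.36 each (SE 0.05 and 0.04), also without overlap of the groups. The control means of the 3 ID1 probe sets ran from 12.26 to 12.99, near the top of the scale, which reached 14.97.

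ID2, which also binds proteins of the retinoblastoma family, was read by 2 probe sets that can both bind further transcripts (_x_at and _s_at). On 11746878_s_at the control arrays gave 10.36, 10.38, 10.31 and 10.29 and the podofilox arrays 9.95, 9.91, 9.87 and 9.98. The groups did not overlap, with a difference of -0.41 (SE 0.05, 95% interval -0.51 to -0.31). On 11715994_x_at the control arrays gave 11.03, 10.98, 10.81 and 10.89 and the podofilox arrays 10.28, 10.35, 10.63 and 10.51, a difference of -0.49 (SE 0.08). There podofilox arrays 3 and 4 lay nearer to the controls than arrays 1 and 2, so arrays 1 and 2 gave -0.69 and arrays 3 and 4 gave -0.28.

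ID4, which is best known from the nervous system and is often silenced by methylation in gastric tumours, gave low values. Its control means were 3.24, 3.39 and 3.62 on 3 probe sets and 5.31 on the fourth, where the array median was near 6.46. The groups overlapped on each of the 4. The differences ran from -0.03 to 0.17 (SE 0.07 to 0.09), with the widest 95% interval from -0.04 to 0.38. The deposited table holds no detection calls, so these dim values do not show whether ID4 mRNA was present.

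**Figure D2:**
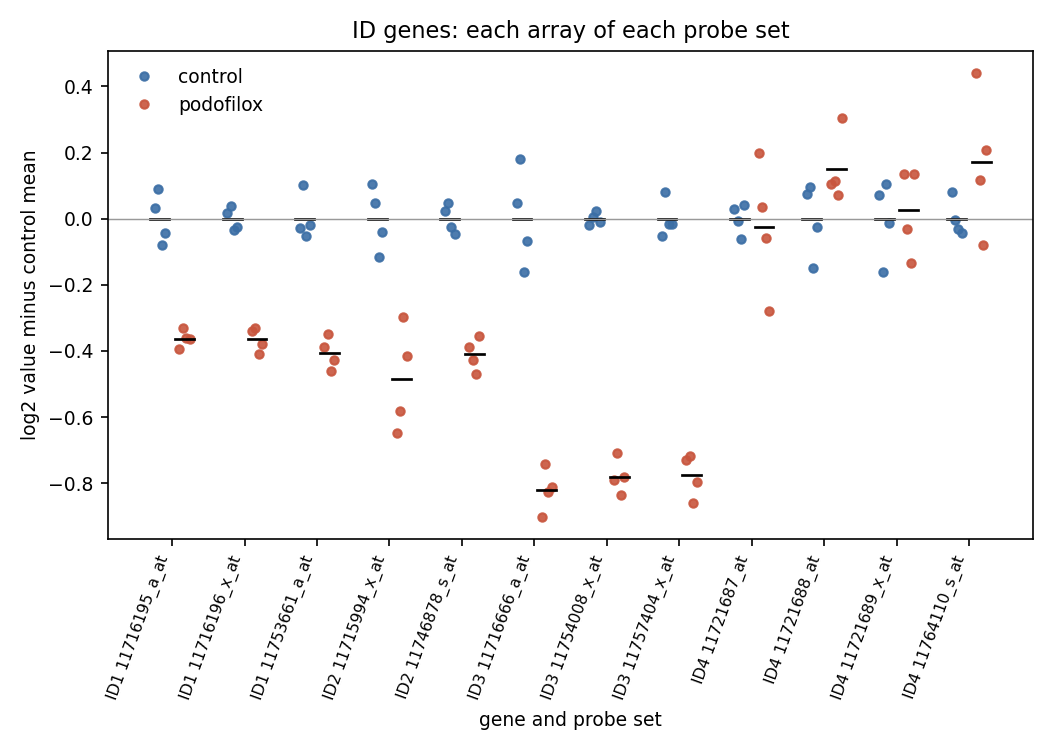
Log2 value minus the control mean of the same probe set (y axis) on every array for the 12 probe sets of ID1 to ID4 (x axis), with control arrays in blue, podofilox arrays in red and black bars at the group means. Podofilox values lie below all control values on the 8 probe sets of ID1, ID2 and ID3 and mix with them on the 4 of ID4.

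Of the receptor-regulated SMADs of the BMP branch, SMAD5 was higher with podofilox. On 11729719_a_at the control arrays gave 7.69, 7.83, 7.83 and 7.81 and the podofilox arrays 8.14, 8.03, 8.05 and 8.04, a difference of 0.27 (SE 0.05) with no overlap. On the brightest SMAD5 probe set, 11757679_s_at, the control arrays gave 10.11, 10.09, 10.09 and 9.90 and the podofilox arrays 10.24, 10.26, 10.49 and 10.13, a difference of 0.23 (SE 0.08). The groups did not overlap there either, but the lowest podofilox array (10.13) lay just above the highest control array (10.11), and the probe set was not called. The 3 other SMAD5 probe sets differed by 0.16, 0.20 and 0.34 (SE 0.10, 0.06 and 0.12), with overlapping groups. Of these, 11729717_a_at (0.20) was called, but of 8 fits that each left out 1 array only the one without control replicate 2 kept the call. On 11741023_a_at arrays 1 and 2 gave a difference of 0.006 and arrays 3 and 4 one of 0.67, and there podofilox arrays 3 and 4 stood at 8.60 and 8.33 against 8.07 and 8.10 on arrays 1 and 2.

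SMAD1, which carries the same BMP signal, gave 2 different readings. On 11723044_at the groups overlapped, with control arrays at 8.61, 8.66, 8.44 and 8.56 and podofilox arrays at 8.51, 8.59, 8.63 and 8.61, and the difference was 0.02 (95% interval -0.11 to 0.15). On 11747501_a_at the podofilox arrays, at 8.16, 8.25, 8.07 and 8.28, lay just below the control arrays, at 8.36, 8.49, 8.30 and 8.39, and the difference was -0.19 (SE 0.06, 95% interval -0.33 to -0.06). That probe set was not called in the fit as reported. It was called with a filter on dim values, with weights for arrays, and with an intensity trend and robust estimation. SMAD9, the third of these SMADs, was dim on its single probe set, at 4.45 to 4.74 on the control arrays and 4.26 to 4.61 on the podofilox arrays, a difference of -0.14 (95% interval -0.35 to 0.06).

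SMAD4, the partner that BMP and TGF-beta SMADs share and a gene often lost in cancers of the gut, was read by 7 probe sets. The groups overlapped on all 7, and 0 of them were called. The differences ran from -0.09 to 0.03, and each 95% interval included 0, together spanning -0.20 to 0.20. On the brightest, 11725360_a_at, the control arrays gave 9.23, 9.01, 9.34 and 9.20 and the podofilox arrays 9.37, 9.20, 9.06 and 9.23. Neither group stood above the other.

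The inhibitory SMAD7, which recruits ubiquitin ligases to activated receptors, was lower on its 3 probe sets. On 11725513_a_at the control arrays gave 6.43, 6.34, 6.25 and 6.53 and the podofilox arrays 5.93, 5.75, 5.75 and 5.65, a difference of -0.61 (SE 0.07). On the brightest, 11725514_a_at, the control arrays gave 7.85, 7.83, 7.73 and 7.68 and the podofilox arrays 6.99, 7.36, 7.27 and 7.23, a difference of -0.56 (SE 0.08). On 11748986_a_at they gave 6.74, 6.50, 6.67 and 6.59 against 6.28, 6.15, 6.05 and 6.09, a difference of -0.48 (SE 0.07). No podofilox array reached a control array on any of the 3, all of the _a_at kind.

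SMAD6, which acts chiefly on the BMP branch, was less even. On 11730339_a_at the control arrays gave 7.53, 7.65, 7.54 and 7.60 and the podofilox arrays 7.32, 7.43, 7.26 and 7.37, a difference of -0.24 (SE 0.05). On the brightest, 11730338_a_at, they gave 8.71, 8.91, 8.47 and 8.53 against 8.14, 8.23, 8.45 and 8.36, a difference of -0.36 (SE 0.10). The groups did not overlap on either, but on the brightest the gap closed between control arrays 3 and 4 and podofilox arrays 3 and 4. Arrays 1 and 2 gave a difference of -0.63 and arrays 3 and 4 one of -0.09. Leaving out 1 array moved the value between -0.42 and -0.28, and the call was lost without control replicate 1 or 2 or podofilox replicate 1, 2 or 4. The third SMAD6 probe set, 11730337_at, differed by 0.05 (95% interval -0.08 to 0.19) with overlapping groups.

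**Figure D3:**
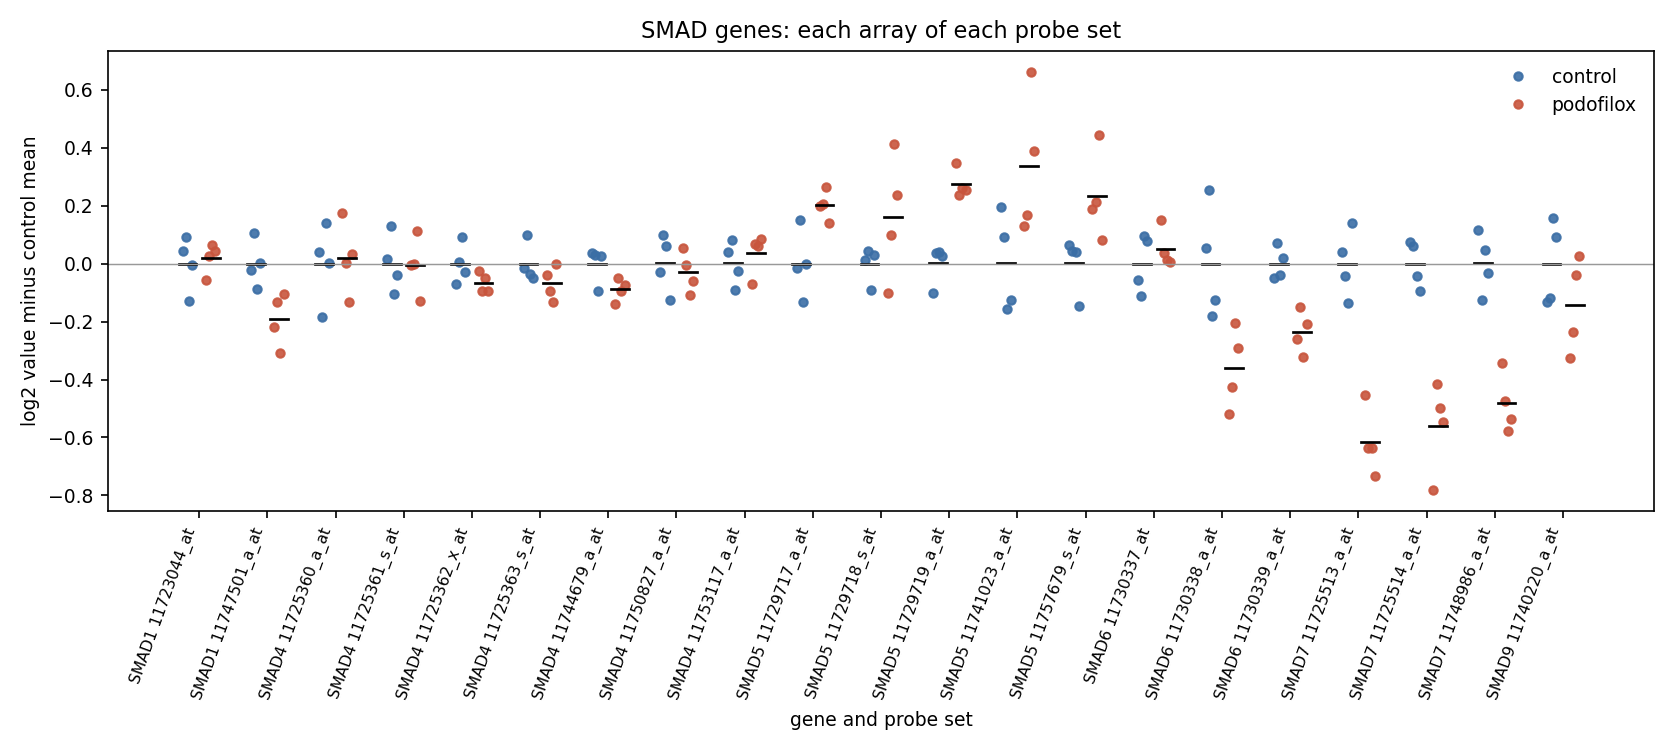
Log2 value minus the control mean of the same probe set (y axis) on every array for the 21 probe sets of the 6 SMAD genes (x axis), with control arrays in blue, podofilox arrays in red and black bars at the group means. The 3 SMAD7 probe sets and 2 of the 3 of SMAD6 lie lower with podofilox, the 5 of SMAD5 have higher means, and the groups mix on the 7 of SMAD4.

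Each difference was also read within arrays 1 and 2 and within arrays 3 and 4, a division taken from earlier results of these data. The labels name no batch, and what these pairs share was not tested. For ID1, ID2 and ID3 the differences ran from -0.94 to -0.36 within arrays 1 and 2 and from -0.82 to -0.28 within arrays 3 and 4. For SMAD7 they ran from -0.67 to -0.40 and from -0.69 to -0.45. The 8 probe sets of these ID genes and the 3 of SMAD7 were thus lower in both pairs. That sign was fixed in advance, since the groups did not overlap on any of them, so only the sizes can be read. The brightest SMAD6 probe set, ID2 on 11715994_x_at and SMAD5 on 11741023_a_at moved between the pairs by the amounts given with those genes. SMAD5 on 11729718_s_at also moved, from -0.031 within arrays 1 and 2 to 0.355 within arrays 3 and 4, so it was not higher in both.

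**Figure D4:**
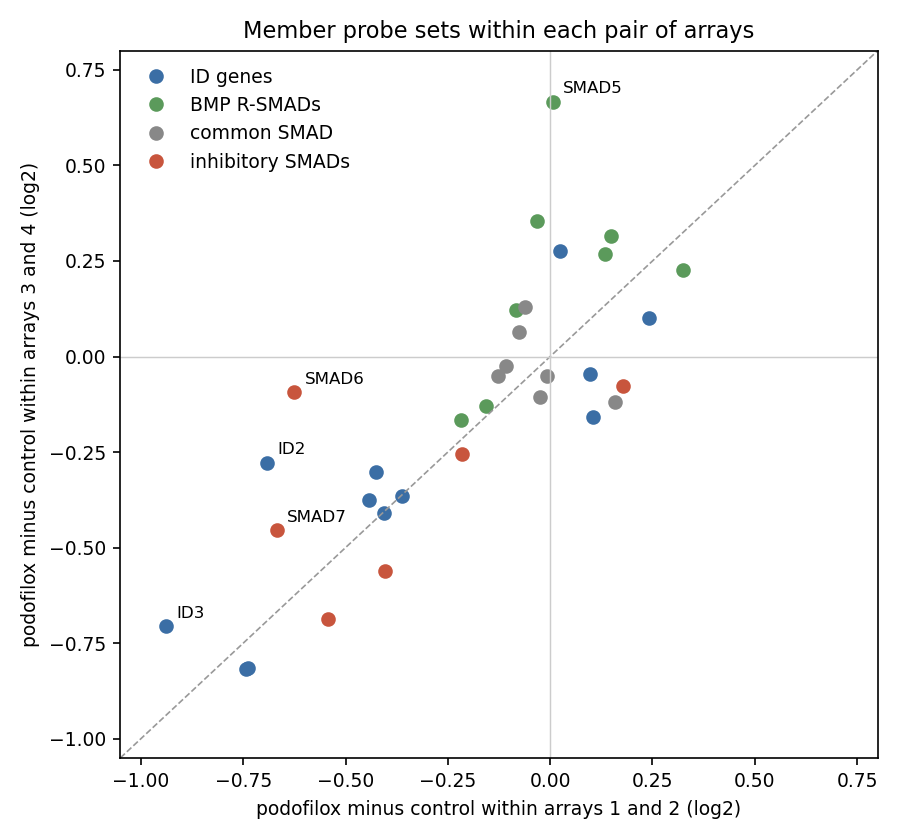
Podofilox minus control (log2) of the 33 probe sets within arrays 1 and 2 (x axis) and within arrays 3 and 4 (y axis), coloured by role, with the line of equal differences dashed and 5 probe sets labelled by gene. All probe sets of ID1, ID2, ID3 and SMAD7 are below 0 on both axes, and the labelled SMAD6 (-0.63 and -0.09) and SMAD5 (0.006 and 0.67) probe sets lie far from the line.

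Reading 1 probe set for each gene, the one with the highest mean, 5 of the 10 genes were called lower (ID1, ID2, ID3, SMAD6 and SMAD7) and 0 higher, where 12.5% of 18132 genes were called lower and 8.55% higher by limma. SMAD5, at 0.23, was not called on that probe set and was called on the mean of its probe sets (0.24). Ordered by their difference from the lowest, ID3 ranked 8, SMAD7 73, ID2 161, ID1 318 and SMAD6 464 among the 18132 genes. On the mean of probe sets the 5 lower genes also stayed below 0, with ID3 at -0.79, SMAD7 at -0.55, ID2 at -0.45, ID1 at -0.38 and SMAD6 at -0.18.

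The other genes of the pathway were read from 9 lists of 142 genes with no member among them, and 133 genes were measured. They were not chosen by their values, but earlier results of these arrays, BMPR2 among them, were known when the lists were written. By limma with 1 probe set per gene and adjustment over all 18132 genes, 16 of the 133 fell and 8 rose. The same fit called 12.5% of all genes lower and 8.55% higher. These shares stand beside the counts of each list and of the cell type markers below. The median difference of the 133 genes was 0.02, against 0.007 over all genes.

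Of 15 BMP ligands 0 fell and 1 rose. BMP2, which starts the signal in gut epithelium among other tissues, rose by 0.19 (SE 0.06, limma adjusted p = 0.0462), a call lost on leaving out any 1 array other than control replicate 3 or podofilox replicate 3 (adjusted p up to 0.116). Arrays 1 and 2 gave 0.31 for BMP2, and arrays 3 and 4 gave 0.07. Of 17 receptors of BMPs and TGF-beta 4 fell and 1 rose. The type II receptor BMPR2 changed by -0.96 (SE 0.04, limma adjusted p = 4.25e-06) on its brightest probe set. Its 3 probe sets ran from -0.96 to -0.13, with 2 of them called, and their mean differed by -0.66. The activin and BMP receptor ACVR2A changed by -0.24 (SE 0.05, limma adjusted p = 0.0108), with its 3 probe sets from -0.33 to 0.14. TGFBR3, a co-receptor, rose by 0.35 (SE 0.06, limma adjusted p = 0.00365). TGFBR1, the type I receptor of TGF-beta, changed by -0.24 (limma adjusted p = 0.0193), but this rests on an _s_at probe set, and its brightest probe set of another kind stood at 0.05 (adjusted p = 0.826). Its call was also lost without control replicate 4 (adjusted p = 0.0503). The co-receptor RGMB was the other receptor that fell (-0.19, limma adjusted p = 0.0314), a call lost in 6 of 8 fits that left out 1 array.

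Of 15 measured antagonists and decoys outside the cell 1 fell and 1 rose. FSTL3, which binds activins, rose by 0.23 (SE 0.04, limma adjusted p = 0.00372), on each of its 3 probe sets. CRIM1, which binds BMPs at the cell surface, changed by -0.20 (SE 0.04, limma adjusted p = 0.00826), which was not called when its 3 probe sets were averaged (-0.09, adjusted p = 0.117).

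The SMADs of the TGF-beta branch went opposite ways on their brightest probe sets. SMAD3 rose by 0.37 (SE 0.04, limma adjusted p = 0.00028), with means of 9.05 ± 0.04 and 9.42 ± 0.03 (SD, 4 arrays each), and its 5 probe sets ran from 0.06 to 0.37, with 2 of them called. SMAD2 changed by -0.35 (SE 0.05, limma adjusted p = 0.00078) on its brightest probe set, but its 7 probe sets ran from -0.35 to 0.30, with 1 called in each direction, and their mean differed by -0.009 (adjusted p = 0.907). With probe sets of the _x_at and _s_at kinds left out, both calls were lost (SMAD3 0.15, adjusted p = 0.0542, and SMAD2 -0.21, adjusted p = 0.0543).

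Of 30 genes whose products modify SMADs or bind them, 9 fell and 0 rose on their brightest probe sets, with a median of -0.07, but 1 of the 9, PPM1A, turned to higher on the mean of its probe sets. Among them were the histone acetyltransferases CREBBP, which changed by -0.41 (SE 0.05, limma adjusted p = 0.00038), and EP300, by -0.32 (SE 0.06, limma adjusted p = 0.00415), which SMADs use as co-activators along with many other factors. The CREBBP value comes from an _s_at probe set, and its brightest probe set of another kind was at -0.20 (adjusted p = 0.0132). The small phosphatases CTDSPL and CTDSP1, which can dephosphorylate SMADs, changed by -0.40 (SE 0.05, limma adjusted p = 0.000437) and -0.39 (SE 0.05, limma adjusted p = 0.000739). CTDSP1 was read by an _s_at probe set, and its other probe set was at -0.15 (adjusted p = 0.386). The ubiquitin ligase gene TRIM33 also fell (-0.21), on 2 of its 3 probe sets. ZFYVE16, whose product binds SMADs on endosomes, was at -0.42 on its brightest probe set, but 1 of its 3 probe sets was called, and their mean differed by -0.14 (adjusted p = 0.0805). PPM1A, a phosphatase, was at -0.15 on its brightest probe set (limma adjusted p = 0.0283). Of its 5 probe sets 1 was called lower and 3 higher (up to 0.41), and their mean differed by 0.18 (limma adjusted p = 0.00656). HIPK2 (-0.16) and SMURF2 (-0.15) lost their calls on the mean of their probe sets (-0.08, adjusted p = 0.191, and -0.11, adjusted p = 0.0682). The calls of HIPK2, PPM1A and SMURF2 were lost in 6, 5 and 7 of the 8 fits that left out 1 array.

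Of 15 other BMP target genes 1 fell and 0 rose, the homeobox gene MSX2, which changed by -0.21 (SE 0.04, limma adjusted p = 0.00687) and was lower on both of its probe sets. Of 10 measured TGF-beta target genes 0 fell and 1 rose on their brightest probe sets. This was TAGLN, an actin-binding protein, by 0.41 (SE 0.05, limma adjusted p = 0.000437) and on each of its 6 probe sets. On the mean of its 9 probe sets TPM1 was called higher (0.14, limma adjusted p = 0.0215), with 2 called by themselves. CCN2 was called lower on the mean of its 3 (-0.18, limma adjusted p = 0.0234), with 1 called by itself. Of the 3 E proteins that ID proteins trap, TCF4 rose by 0.25 (SE 0.06, limma adjusted p = 0.00958), with 4 of its 11 probe sets called higher. TCF3 (-0.11) and TCF12 (0.22) did not pass the test on their brightest probe sets. On the mean of its 11 probe sets TCF12 was called higher (0.12, limma adjusted p = 0.0432), with 1 probe set called by itself. TCF3 was not called on its mean (-0.11, limma adjusted p = 0.0765), but 1 of its 4 probe sets was called lower. Of 26 measured tissue-specific and repressor genes of the bHLH family 0 fell and 2 rose, BHLHE40 by 0.44 (SE 0.05, limma adjusted p = 0.00038) and HES4 by 0.21 (SE 0.05, limma adjusted p = 0.0139).

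**Figure D5:**
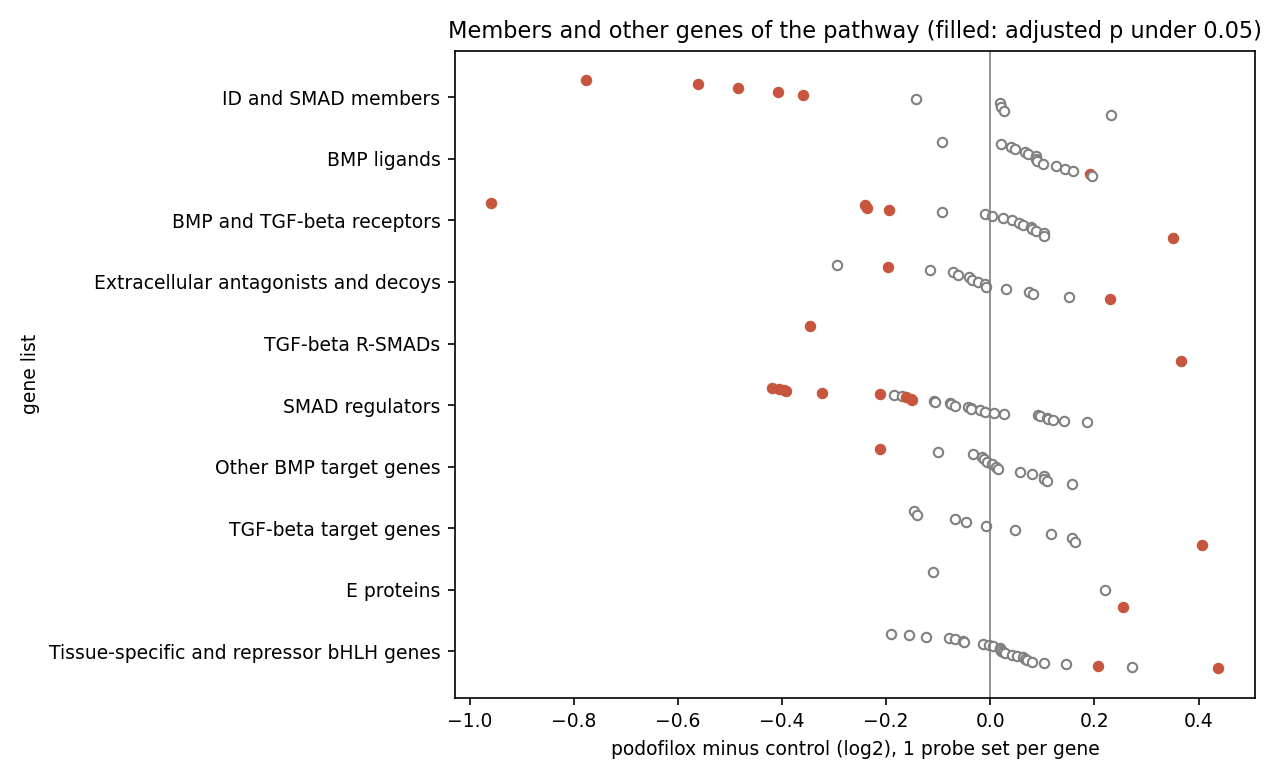
Podofilox minus control (log2, x axis) of the 10 ID and SMAD genes and of 133 other genes in 9 lists of the pathway (y axis), 1 probe set per gene, filled where the limma adjusted p over all genes was under 0.05. BMPR2 (-0.96) lies farthest to the left, 9 of 30 SMAD regulators are filled below 0, and 1 of 15 other BMP targets is filled.

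The 5 genes whose profile over the 8 arrays lay nearest to that of ID3 were sought among 13527 genes with a mean of at least 5, by the root mean square distance between profiles centred on their own means (log2). REG4, a secreted lectin of the gut, was nearest (distance 0.02), with control arrays at 11.56, 11.66, 11.57 and 11.57 and podofilox arrays at 10.89, 10.91, 10.77 and 10.85. CYP1A1, an oxidase induced through the aryl hydrocarbon receptor, was at a distance of 0.05, the transferrin receptor gene TFRC at 0.06, the sulfate transporter gene SLC26A2 at 0.07 and the F-box gene FBXO30 at 0.08. Their differences ran from -0.78 (FBXO30) to -0.71 (TFRC). Of the members, SMAD7 (distance 0.17), ID1 (0.19), ID2 (0.21) and SMAD6 (0.26) came closest, and SMAD7, the nearest of them, ranked 155. The difference between the groups is part of this distance, which is a description with no test.

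On the arrays as a whole, values ran from 2.64 to 14.97 with array medians of 6.42 to 6.48, and arrays of 1 group correlated at 0.997 to 0.999 across genes, which are not independent replicates. Of 8 epithelial markers, 6 were bright in control cells, from ELF3 at 11.46 to KRT19 at 13.28, while CDH1 was at 7.41 and KRT7 at 6.04. Fibroblast markers had control means of 3.15 to 5.70 apart from PDGFRA (8.78), endothelial markers of 4.72 to 6.93, and immune markers of 3.62 (PTPRC) to 6.05 apart from CD68 (7.22) and LYZ (13.60), which gastric epithelium also makes. Of the epithelial markers 0 fell and 2 rose (CLDN4 by 0.50 and ELF3 by 0.27), and their mean per array was 11.17 to 11.23 in control cells and 11.35 to 11.39 with podofilox. On their brightest probe sets, 1 of 8 fibroblast markers fell (PDGFRA, -0.27), 1 of 8 endothelial markers fell (CDH5, -0.44), and 2 of 7 immune markers rose (CD2, 0.31, and CD68, 0.28). PDGFRA had 1 probe set called lower and 2 higher, with a mean of 0.09, and CDH5 had probe sets from -0.44 to 0.21, with a mean of -0.12 (adjusted p = 0.35). The call of CDH5 was lost without podofilox replicate 2 or 3, and that of CD2 without control replicate 4 or podofilox replicate 1 or 4. The means of these 3 lists overlapped between the groups for fibroblast (4.75 to 4.93 and 4.79 to 4.92) and endothelial markers (5.51 to 5.79 and 5.53 to 5.70) but not for immune markers (6.31 to 6.46 and 6.47 to 6.53). The part of these shifts in the ID and SMAD values was not tested.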

How the data were processed

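The deposited table holds log2 expression values, 1 for each array and probe set. The authors' processing was RMA (background correction, quantile normalization and summary of probes), per the submitters' processing notes, with software and options not given in the sources used. Quantile normalization sets every array to the same distribution, so a change in total mRNA is not visible. That the scale is log2 was judged from the range of values. Biotin-labelled cRNA on 1-colour arrays was measured, per the labels.

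Of 49395 probe sets, 102 were manufacturer controls, 44988 had 1 gene in the platform annotation, 1832 had several and 2473 were unnamed here; 44961 matched the RefSeq gene table of GRCh38.p14 by Entrez identifier. The difference of the groups was fitted in R 4.3.3 by limma 3.58.1, with lmFit, eBayes, no covariate and all 8 arrays, over all single-gene probe sets and, for lists, over 18132 genes by their brightest probe set, with Benjamini-Hochberg adjustment and two-sided p-values. On simulated data the fit recovered 18 of 68 probe sets changed by 0.25 (log2), 46 of 66 changed by 0.5 and 64 of 66 changed by 1. For genes, 19 of 68 changes of 0.25 were recovered, so most changes of that size were missed in the simulation. The simulation changed far fewer features than the 18.0% of probe sets and 21.0% of genes called here. Its adjusted p-values were therefore stricter, and its recovery is not that of the fit as reported. Members and lists were chosen with earlier results of these data known. Named are all 10 members, SMAD2 and SMAD3, from each list up to 4 genes past the test with the smallest p, and the 5 genes nearest to ID3. Other genes named (TCF3, TCF12, RGMB, ZFYVE16, TRIM33, HIPK2, PPM1A, SMURF2, TPM1, CCN2 and cell type markers) were added after their values were seen. Some listed genes, and protein sequences, were not analysed here. Alternatives were a dim filter, repeated quantile normalization, median centring, weights for arrays, an intensity trend with robust estimation, blocks by replicate number or array pair, array pairs, other probe set choices and each array left out. Python 3.11.15 and matplotlib 3.10.9 made the figures.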

Additional observations from a re-analysis of the deposited data

Results flagged for a closer look

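The groups of 4 arrays behind the probe sets and genes named, other than TPM1 and CCN2, numbered 160. Of these, 13 held 1 array far from the other 3, where chance gives about 1 in 20. Among members these were SMAD4 on 11744679_a_at, with control replicate 3 at 8.18 against 8.30 to 8.31, and on 11753117_a_at, with podofilox replicate 1 at 6.97 against 7.10 to 7.13. SMAD5 stood apart on 11729719_a_at in control replicate 1, at 7.69 against 7.81 to 7.83, and on 11757679_s_at in control replicate 4, at 9.90 against 10.09 to 10.11. Control replicate 2 stood apart for ACVR2A, at 8.36 against 8.19 to 8.21, and for REG4, at 11.66 against 11.56 to 11.57. Podofilox replicate 1 stood apart for BHLHE40, at 8.81 against 8.96 to 8.99, and for CREBBP, at 9.24 against 9.29 to 9.30. For FSTL3 it was podofilox replicate 3, at 10.05 against 10.16 to 10.17, and for TGFBR3 control replicate 3, at 9.15 against 9.04 to 9.05. The marker genes CDH1 and CDH5 were the others. For CDH1 these were control replicate 2, at 7.53 against 7.36 to 7.39, and podofilox replicate 4, at 7.44 against 7.54 to 7.55, and for CDH5 podofilox replicate 4, at 4.85 against 4.78 in each of the other 3. No probe set of ID1, ID2, ID3, SMAD6 or SMAD7 had such an array.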

How the results depend on the processing

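The 8 probe sets of ID1, ID2 and ID3 kept their sign under every alternative run, with differences from -0.94 to -0.28, and 7 of the 8 stayed past the threshold in each; the exception was ID2 on 11715994_x_at within arrays 3 and 4. All 13 member probe sets called lower kept their sign, 9 of them also their call. The groups did not overlap on any of the 13, so fits on fewer arrays could not change the sign. Keeping it is therefore not read as support. Member probe sets called lower numbered 8 without _x_at and _s_at probe sets, which removes 5 of the 13, and 12 to 13 on leaving out each array. Those called higher, 2 in the fit as reported, were 1 with median centring, with the replicate block, within arrays 3 and 4 and without _x_at and _s_at probe sets, 0 within arrays 1 and 2, 4 with array weights, and 1 to 2 on leaving out each array. Member genes called higher, 0 as reported, were 1 (SMAD5) with the dim filter, repeated quantile normalization, array weights, trend and robust estimation, the replicate block, the mean of probe sets and the brightest probe set not of the _x_at or _s_at kind, and 0 to 1 on leaving out each array; those called lower were 3 within arrays 3 and 4.

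Over all single-gene probe sets, 4590 were lower and 3522 higher as reported. The counts were 1353 and 1352 within arrays 1 and 2, 2610 and 2032 within arrays 3 and 4, and 2971 and 2272 without _x_at and _s_at probe sets, and 5534 were higher with array weights. Leaving out each array gave 3232 to 4296 lower and 2418 to 3451 higher. Of the pathway genes, 16 lower and 8 higher as reported, 6 and 4 were called within arrays 1 and 2, 9 were lower within arrays 3 and 4, and 15 were higher with array weights and 14 with the mean of probe sets. TGFBR1 turned from -0.24 to 0.053 on its brightest probe set not of the _x_at or _s_at kind, and on the mean of probe sets PPM1A turned from -0.15 to 0.177 (adjusted p = 0.00656) and the marker PDGFRA from -0.27 to 0.09 (adjusted p = 0.193). Pairs of arrays hold fewer samples and the last choice fewer probe sets; the cause of the other shifts was not tested. Of the 5 genes nearest to ID3, 4 were also among the 5 nearest by the differences within array pairs.

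The labels number the replicates 1 to 4 in each group, but same-numbered arrays deviated from their group means with correlations of -0.24 to 0.09 across genes, and only 1 of 4 control arrays correlated best with its own number, so the numbers were not taken as pairs. With the replicate number as a block, 3176 probe sets were lower and 2405 higher, and SMAD6 on 11730338_a_at (-0.36) and SMAD5 on 11729717_a_at (0.20) lost their calls, as did BMP2 (adjusted p = 0.113), HES4 (0.0505), RGMB (0.0563), HIPK2 (0.067), PPM1A (0.0661) and SMURF2 (0.0832). Without a measure of background in the table, dim probe sets such as those of ID4 and SMAD9 limit what can be read.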
